A study of Mus musculus with 18 samples.

Results

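The hippocampal transcripts of the corticosterone system were followed in WT and *Ccny* KO mice through the Morris water maze. The 10 genes described here were taken by name from the 15329 genes of the deposited table, by a rule that uses no measured value, although earlier results of these data were known when they were chosen. They were the receptors *Nr3c1* and *Nr3c2* and 8 genes that are induced through them, *Fkbp5*, *Sgk1*, *Tsc22d3*, *Zbtb16*, *Hif3a*, *Plin4*, *Cdkn1a* and *Mt2*. All 10 had reads in all 18 libraries, and all 10 passed the filter of a value above 0 in at least 3 libraries. The 18 libraries came from 18 mice, 3 in each of 6 groups. WT_Basal and KO_Basal mice were untrained, WT_OL and KO_OL mice had completed original learning, and WT_RL and KO_RL mice had completed original learning followed by reversal learning, in which the hidden platform was moved to the opposite quadrant. All mice were 8 to 10 weeks old on the C57BL/6J background, and the methods give male mice for the maze. The KO mice carried a knockout of *Ccny*, the gene of cyclin Y, for which the labels name no restriction to a cell type, and each library came from hippocampal tissue with all of its cell types. In such tissue, fewer cells of a type and less RNA per cell cannot be told apart.

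Corticosterone, the main glucocorticoid of mice, acts on both receptors. The mineralocorticoid receptor, encoded by *Nr3c2*, is abundant in the hippocampus and binds the hormone at its low resting level, whereas the glucocorticoid receptor, encoded by *Nr3c1*, has a lower affinity and is engaged at the daily peak and during stress. In the absence of hormone the receptors are held by HSP90 and its cochaperones. Bound to hormone they enter the nucleus and activate genes through the glucocorticoid response element, an inverted repeat of AGAACA and TGTTCT with 3 bases between the half-sites, and they also act through other DNA-bound factors.

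The bases before annotated start sites are shown for 5 induced genes, to set those with a match to this element near a start beside the genes that differed most between reversal and original learning. RefSeq windows on GRCm38.p6, from 250 bases before to 50 after a start, were found for 8 of the 10 genes, with 16 windows in all. *Nr3c1* and *Zbtb16* had no window. Bases that lie in an exon of the gene in GENCODE were left out, so the printed bases of *Tsc22d3* and *Plin4* end before the RefSeq start. Sequences run 5' to 3', and capitals mark the full element in *Sgk1* and the single half-site in *Tsc22d3*.
Sgk1, chr10:21993640-21993889, plus strand: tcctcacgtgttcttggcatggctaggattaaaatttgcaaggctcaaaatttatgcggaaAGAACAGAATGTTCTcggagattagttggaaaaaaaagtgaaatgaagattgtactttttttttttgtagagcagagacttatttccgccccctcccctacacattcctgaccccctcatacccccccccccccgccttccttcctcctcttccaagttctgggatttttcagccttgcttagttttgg
Tsc22d3, chrX:140600660-140600772, minus strand: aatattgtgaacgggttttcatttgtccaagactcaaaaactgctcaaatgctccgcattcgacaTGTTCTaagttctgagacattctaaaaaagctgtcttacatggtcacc
Fkbp5, chr17:28486150-28486399, minus strand: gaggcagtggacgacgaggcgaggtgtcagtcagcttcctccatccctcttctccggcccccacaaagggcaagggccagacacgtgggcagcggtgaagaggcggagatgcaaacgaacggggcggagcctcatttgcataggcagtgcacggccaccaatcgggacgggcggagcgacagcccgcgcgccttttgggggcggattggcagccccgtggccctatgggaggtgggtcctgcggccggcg
Hif3a, chr7:17062428-17062677, minus strand: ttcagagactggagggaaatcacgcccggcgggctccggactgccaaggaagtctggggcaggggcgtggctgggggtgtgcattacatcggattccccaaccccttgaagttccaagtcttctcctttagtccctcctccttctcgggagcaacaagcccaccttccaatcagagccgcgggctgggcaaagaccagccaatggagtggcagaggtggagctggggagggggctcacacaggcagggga
Plin4, chr17:56109804-56110032, minus strand: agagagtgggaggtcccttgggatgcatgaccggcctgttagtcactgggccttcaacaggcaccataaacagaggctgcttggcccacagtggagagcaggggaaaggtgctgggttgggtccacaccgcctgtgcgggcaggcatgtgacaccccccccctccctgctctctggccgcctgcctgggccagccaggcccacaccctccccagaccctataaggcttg
The full element was searched as the exact letters AGAACA, any 3 bases, TGTTCT, which read the same on both strands. It was found in 1 of the 6 *Sgk1* windows, where it starts 189 bases before the start site, and in 3 of all 32851 windows (0.00913%). A half-site on either strand, counted also where it forms part of a full element, was found in 3 windows of *Sgk1* and in 1 of the 3 windows of *Tsc22d3*, against 19.0% of all windows. In *Tsc22d3* it starts 185 bases before the RefSeq start, and nearer to the GENCODE exon at which the printed bases end. The windows of *Fkbp5*, *Hif3a*, *Plin4*, *Cdkn1a*, *Mt2* and *Nr3c2* held neither, which says only that these letters are not in these windows.

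Summed over the genes of the table, libraries held between 29248557 and 37915576 reads, and the 10 genes had from 64 to 7987 reads each in a library. Values are CPM, the reads of a gene scaled to a common library size, after normalization by the trimmed mean of M-values. Tests were made with limma on log2(CPM + 1), and an adjusted p is a Benjamini-Hochberg value over 15329 genes from that fit, with a gene called when it was under 0.05. *Ccny* itself lay between 106.6 and 158.5 CPM in the 9 WT mice and between 73.96 and 95.78 CPM in the 9 KO mice, without overlap, so transcripts of the targeted gene were reduced and not absent. Defining genes of CA1 and dentate neurons were present in each library (summed CPM of 6 CA1 genes from 464 to 780, and of 8 dentate genes from 322 to 658). Markers of choroid plexus epithelium, a tissue next to the hippocampus, varied far more. Their summed CPM over 12 genes, with none at 0 in the mean of a group, lay between 56.9 and 696 in KO_Basal, 2494 and 4800 in KO_OL and 1394 and 5212 in KO_RL mice. It lay between 898.5 and 4503 in WT_Basal, 1945 and 3393 in WT_OL and 49.6 and 8722 in WT_RL mice. Of the 12 markers, 12 were called higher in KO_OL mice and 10 in KO_RL mice than in KO_Basal mice, and 0 between WT groups by the same limma fit, where 0 had an unadjusted p under 0.05. WT_OL replicate 2 stood apart from the other libraries, with a median correlation of 0.983 with the other 17 across genes. The share of reads mapped uniquely, as listed in the paper, was lower in every Basal library than in every KO_OL and every RL library. WT_OL replicates 1 and 2 lay close to the Basal libraries in this share, and WT_OL replicate 3 close to the RL libraries. Every WT_OL library still lay below every WT_RL library, while KO_OL and KO_RL libraries overlapped. Where this share and training differ together they cannot be told apart, and the part of the share was not tested.

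Per kilobase of annotated exon, and averaged over the 18 mice, *Mt2* was the most abundant of the 10 genes (261 ± 50.8 CPM per kb, SD, n = 18). *Sgk1* (24.9 ± 9.57), *Tsc22d3* (23.4 ± 5.85) and *Nr3c2* (21.4 ± 3.07 CPM per kb) followed and did not differ beyond their spread. *Nr3c1* (13.1 ± 1.43), *Zbtb16* (10.7 ± 4.19) and *Fkbp5* (9.73 ± 2.77 CPM per kb) formed a middle range with overlapping spreads. *Cdkn1a* (3.28 ± 1.27), *Plin4* (1.55 ± 1.67) and *Hif3a* (1.26 ± 0.567 CPM per kb) were the least abundant, and the latter pair did not differ beyond its spread.

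**Figure D1:**
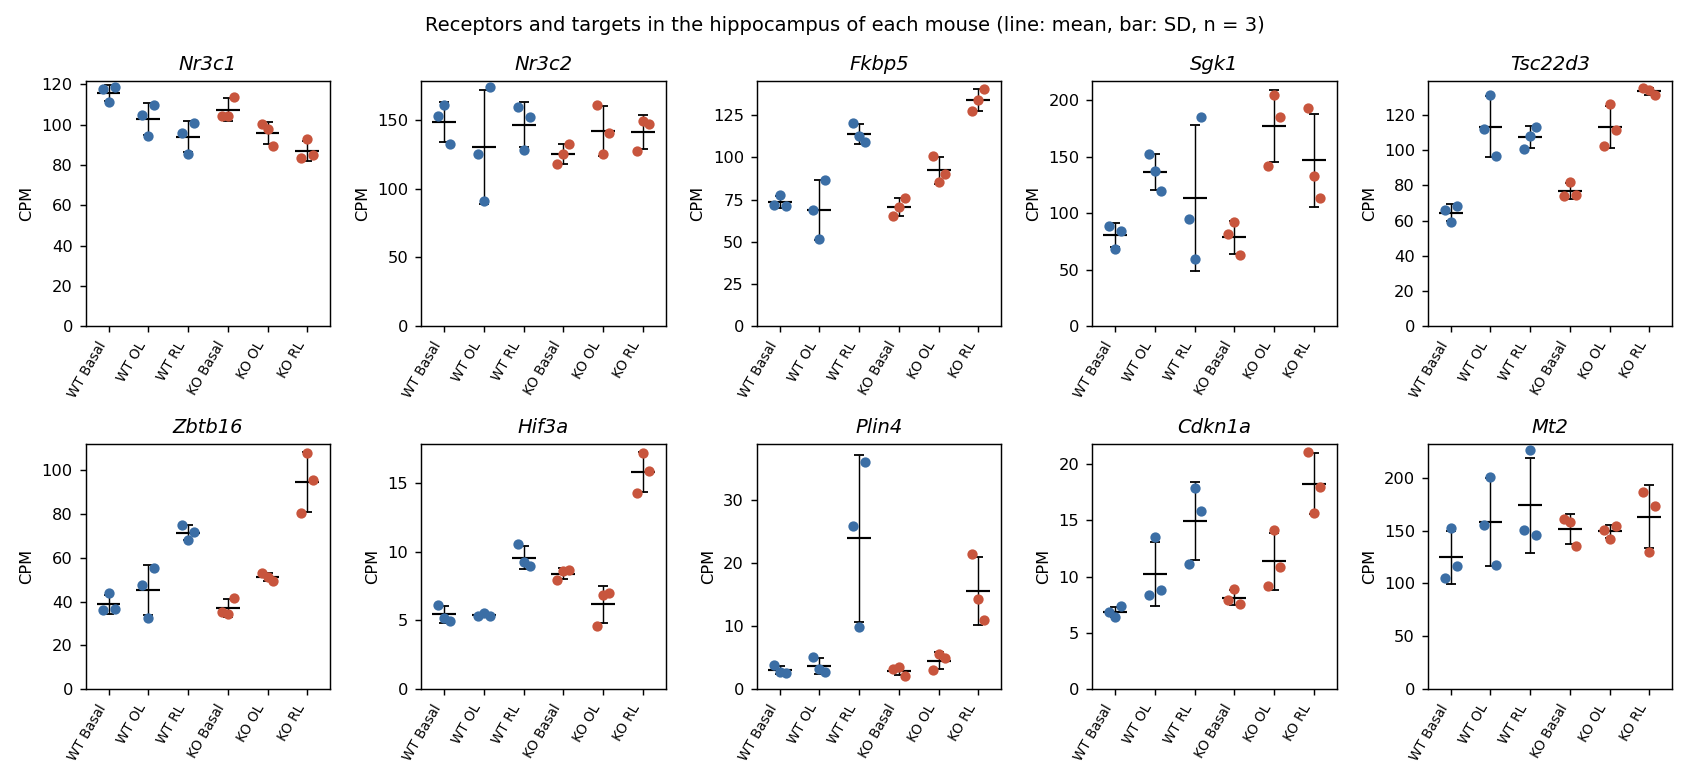
CPM (y axis) of each of the 10 genes in each mouse, by group (x axis). Points are mice, blue for WT and red for KO, lines are means and bars are SD of 3 mice. *Fkbp5*, *Zbtb16*, *Hif3a* and *Plin4* were higher in all 3 RL mice than in all 3 OL mice of the same genotype.

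*Fkbp5*, *Zbtb16*, *Hif3a* and *Plin4* were higher in every RL mouse than in every OL mouse of the same genotype, in WT and in KO mice alike. *Tsc22d3*, *Sgk1* and *Cdkn1a* were higher in every OL mouse than in every Basal mouse of the same genotype. In KO mice alone, this also held for *Fkbp5* and *Zbtb16*, and *Tsc22d3* and *Cdkn1a* rose again without overlap from OL to RL. Without overlap, 13.1% of all genes were higher in WT_OL than in WT_Basal mice, and 24.2% in the KO comparison. By limma, *Tsc22d3* was called from Basal to OL in both genotypes, *Sgk1* in KO mice only and *Cdkn1a* in neither. Between WT_RL and WT_OL mice only 40 of 15329 genes were called. Of all genes 0.104% were called higher and 0.157% lower, and 3 of the 10 genes, *Fkbp5*, *Hif3a* and *Plin4*, were called higher. Between KO_RL and KO_OL mice 0.0196% of genes, which are 3 genes, were called higher and 0% lower, and *Hif3a* was 1 of the 3, with *Fam214a* and *Mlph*. Without overlap of mice, 4 of the 10 genes were higher in WT_RL than in WT_OL mice against 5.74% of all genes, and 6 of the 10 were higher in KO_RL than in KO_OL mice against 6.91%. The median log2 fold change of the 10 genes was 0.36 in WT and 0.39 in KO mice, with 0.0072 and 0.00056 over all genes. The WT count rested on single mice. It fell to 0 without WT_OL replicate 1 or without WT_OL replicate 2 and to 1 without WT_RL replicate 2, and rose to 5 without WT_OL replicate 3, while the KO count stayed at 1 without any 1 mouse. In fits of the 6 libraries compared alone, both counts were 0. The share of uniquely mapped reads also differed without overlap between WT_RL and WT_OL mice, and its part in the WT calls was not tested.

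**Figure D2:**
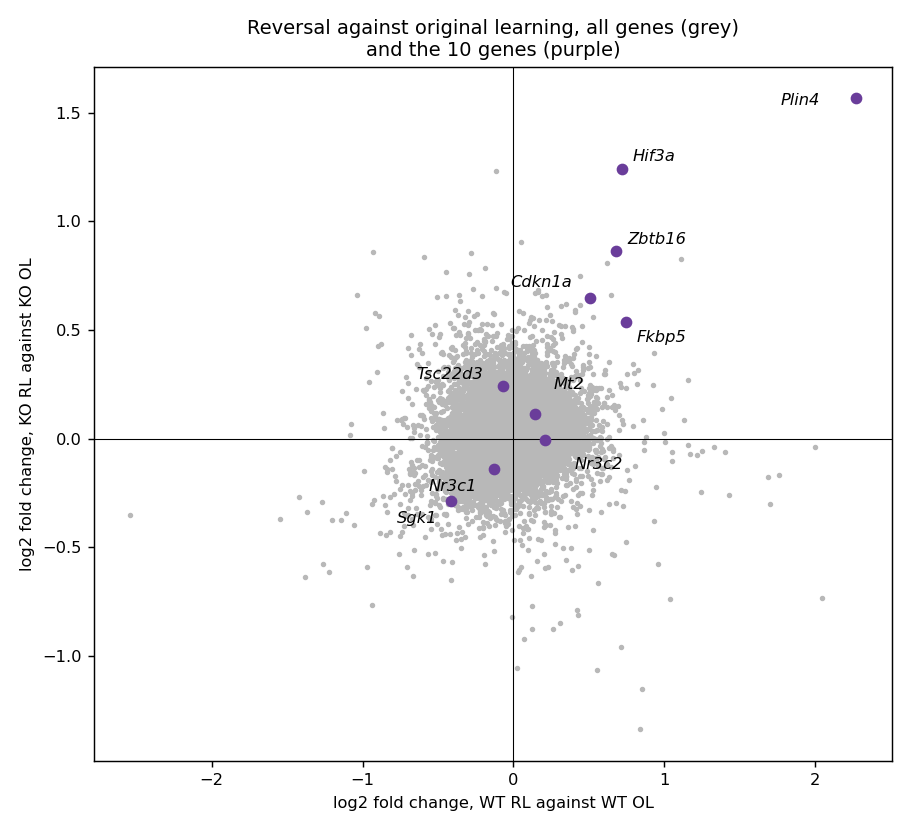
Log2 fold change of reversal against original learning in WT mice (x axis) and KO mice (y axis) for all 15329 genes (grey) and the 10 genes (purple), as differences of group means of log2(CPM + 1). The axes share no mice. *Plin4* had the highest value on both axes, and *Hif3a*, *Zbtb16*, *Fkbp5* and *Cdkn1a* lay in the same quadrant.

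Over both genotypes together, a comparison added after the data had been seen, 4 of the 10 genes were called higher with reversal than with original learning, against 0.209% of all genes called higher and 0.144% lower. These were *Hif3a* (log2 fold change 0.98, standard error 0.087, limma adjusted p = 6.24e-05), *Plin4* (1.92, 0.252, adjusted p = 0.00231), *Zbtb16* (0.77, 0.106, adjusted p = 0.00311) and *Fkbp5* (0.64, 0.0912, adjusted p = 0.00356). *Cdkn1a* had a log2 fold change of 0.58 with an adjusted p of 0.0732. The difference between genotypes in the change from OL to RL was called for 0 of the 10 genes and for 0% of all genes by limma, with an unadjusted p under 0.05 for 2 of the 10, *Hif3a* and *Tsc22d3*, and for 7.98% of all genes.

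The glucocorticoid receptor gene *Nr3c1* (chromosome 18, 39410545 to 39519421, minus strand, GRCm38) was lower after reversal learning than at Basal in both genotypes. It was measured at 117.5, 111.4 and 118.6 CPM in WT_Basal mice, 104.7, 94.3 and 109.9 CPM in WT_OL mice, and 96.0, 85.4 and 100.6 CPM in WT_RL mice. The KO mice gave 104.1, 104.3 and 113.9 CPM at Basal, 100.3, 97.9 and 89.5 CPM after OL, and 83.4, 92.8 and 84.7 CPM after RL. In both genotypes all trained mice lay below all Basal mice, and OL and RL mice overlapped. Of all genes, 15.2% were lower without overlap in WT_OL and 16.7% in WT_RL than in WT_Basal mice. In the same KO comparisons 24.6% and 22.6% were lower without overlap. From Basal to RL the log2 values fell by 0.30 in WT (standard error 0.0776, limma adjusted p = 0.0163) and fell by 0.30 in KO mice (adjusted p = 0.0106). With each library corrected for GC content, an alternative added after the data had been seen, the falls were 0.14 and 0.16 in size and neither was called (adjusted p = 0.197 and 0.104). The WT call was also lost without WT_Basal replicate 1, WT_Basal replicate 3 or WT_RL replicate 2 (adjusted p from 0.0602 to 0.0772) and in a fit of those 6 libraries alone (0.05045). From Basal to OL the changes of -0.17 in WT and -0.16 in KO mice did not pass the threshold, and the GC correction turned the WT value to 0.011. Over the 18 mice Pearson r of *Nr3c1* with the astrocyte markers was -0.375 (permutation adjusted p = 0.341), and -0.818 with group means removed. For the microglia markers r was 0.134 (adjusted p = 0.594) and -0.816. The summed astrocyte markers were higher in every trained than in every Basal mouse of its genotype. The highest Basal and lowest trained sums were 5914 and 6456 CPM in WT and 5983 and 6226 CPM in KO mice. The part of these cells was not tested.

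The mineralocorticoid receptor gene *Nr3c2* (chromosome 8, 76899442 to 77245012, plus strand, with exons that overlap *Gm10649* on the other strand) was called in none of the 9 comparisons of groups. Its values ran from 132 to 161 CPM in WT_Basal, from 91.2 to 173.7 CPM in WT_OL and from 128 to 159 CPM in WT_RL mice. In KO mice they ran from 118 to 132 CPM at Basal, from 125 to 161 CPM after OL and from 127 to 149 CPM after RL. The widest spread was that of the WT_OL mice, with the lowest value in WT_OL replicate 2. Across the 18 mice *Nr3c2* varied with the mean of the dentate granule neuron markers (Pearson r = 0.731, Spearman rho = 0.641, permutation adjusted p = 0.0062 and 0.0523, r = 0.511 after removal of the 2 mice most distant from the median marker level, r = 0.766 with group means removed). It varied in the opposite direction with the microglia markers (Pearson r = -0.681, Spearman rho = -0.606, permutation adjusted p = 0.0144 and 0.0314, r = -0.713 without the 2 most distant mice, r = -0.726 with group means removed). With the astrocyte markers Pearson r was -0.629 (adjusted p = 0.0365) and Spearman rho -0.379 (adjusted p = 0.557). That r was -0.243 without the 2 most distant mice and -0.760 with group means removed. The part of these cell types in the values of *Nr3c2* was not tested.

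Expressed as a ratio of *Nr3c2* to *Nr3c1* per kilobase, the receptors stood at 1.54, 1.71 and 1.32 in WT_Basal mice, 1.42, 1.15 and 1.88 in WT_OL mice, and 1.96, 1.77 and 1.79 in WT_RL mice. In KO mice the ratio was 1.35, 1.43 and 1.38 at Basal, 1.90, 1.51 and 1.86 after OL, and 1.81, 1.91 and 2.06 after RL. RL mice lay above Basal mice without overlap in both genotypes, and so did KO_OL mice above KO_Basal mice. The exact two-sided permutation p was 0.1 for each of these 3, the smallest that 3 mice against 3 allow, and 0.3 or more for the other 6 of the 9 comparisons.

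*Fkbp5* (chromosome 17, 28399094 to 28517527, minus strand) encodes FKBP51, an HSP90 cochaperone that lowers the hormone affinity of the glucocorticoid receptor and so closes a negative feedback loop. WT_Basal mice had 71.7, 77.7 and 71.2 CPM, WT_OL mice 68.7, 51.4 and 86.7 CPM, and WT_RL mice 120.3, 112.3 and 108.7 CPM. In WT mice only the RL group stood out, above all Basal and OL mice. KO_Basal mice had 65.5, 70.5 and 75.8 CPM, KO_OL mice 100.7, 85.6 and 90.3 CPM, and KO_RL mice 127.4, 134.1 and 140.5 CPM. In KO mice the groups followed each other from Basal to OL to RL without overlap. The rise from OL to RL was 1.65-fold as a ratio of mean CPM in WT (log2 fold change 0.74, standard error 0.129, limma adjusted p = 0.0253) and 1.45-fold in KO mice (0.54, adjusted p = 0.2996, not called). The rise from Basal to OL was called in KO mice (0.38, adjusted p = 0.0426) and lost with any 1 of the 6 mice left out (adjusted p from 0.051 to 0.153), with CPM floored at 1 (0.0607) and with GC correction (0.122). From Basal to RL it was called in WT (0.62, adjusted p = 0.00455) and in KO mice (0.92, adjusted p = 0.000171).

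*Zbtb16* (chromosome 9, 48654297 to 48836222, minus strand) encodes the zinc finger transcription factor PLZF. In WT mice it stood at 36.0, 43.8 and 36.5 CPM at Basal, 47.5, 32.7 and 55.5 CPM after OL, and 74.8, 68.0 and 71.6 CPM after RL. The corresponding KO values were 35.1, 34.2 and 41.7 CPM, 53.2, 51.1 and 49.2 CPM, and 80.3, 107.9 and 95.3 CPM. RL mice were the highest in both genotypes and overlapped with no other group of their genotype. The change from OL to RL had log2 values of 0.68 in WT (limma adjusted p = 0.0745) and 0.86 in KO mice (adjusted p = 0.0982) and was not called in either alone. From Basal to RL *Zbtb16* was called in WT (0.87, adjusted p = 0.00153) and in KO mice (1.33, adjusted p = 3.48e-05). The rise from Basal to OL was called in KO mice (0.46, adjusted p = 0.0344) and lost with CPM floored at 1 (0.0522), with GC correction (0.126) and without any 1 of the 6 mice other than KO_Basal replicate 3 (adjusted p from 0.0684 to 0.113). *Fkbp5* and *Zbtb16* had the highest correlation of any pair among the 10 genes over the 18 mice (Pearson r = 0.952, and 0.860 with group means removed), and *Fkbp5* and *Nr3c2* the highest with group means removed (0.928, and 0.529 without). Other pairs of induced genes varied in opposite directions within groups. With group means removed, r with *Tsc22d3* was -0.862 for *Fkbp5* and -0.731 for *Zbtb16* (0.501 and 0.641 without removal), and with *Cdkn1a* it was -0.689 and -0.714.

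*Hif3a* (chromosome 7, 17031507 to 17062427, minus strand) encodes a hypoxia-inducible factor subunit with isoforms that inhibit the other HIF proteins. It was low in abundance, with 151 to 562 reads per library. WT mice had 6.16, 5.20 and 4.998 CPM at Basal, 5.31, 5.58 and 5.36 CPM after OL, and 10.5, 9.27 and 8.93 CPM after RL. KO mice had 7.95, 8.61 and 8.66 CPM at Basal, 4.63, 6.89 and 6.98 CPM after OL, and 14.3, 17.2 and 15.9 CPM after RL. Thus the WT mice separated into RL above all others, while in KO mice OL lay below Basal and RL above both. From OL to RL the log2 fold change was 0.72 in WT (standard error 0.123, limma adjusted p = 0.0253) and 1.24 in KO mice (standard error 0.123, adjusted p = 0.000306). From Basal to OL it fell by 0.41 in KO mice (adjusted p = 0.0246), a call that was lost without KO_OL replicate 1, KO_Basal replicate 2 or KO_Basal replicate 3 (adjusted p from 0.0665 to 0.132). In WT mice the same change was 0.00, with a 95% interval from -0.26 to 0.26.

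*Plin4* (chromosome 17, 56100591 to 56109803, minus strand, with exons that overlap *Hdgfl2* on the other strand) encodes perilipin 4, a coat protein of lipid droplets. Basal mice had 3.83, 2.76 and 2.61 CPM in WT and 3.15, 3.45 and 2.08 CPM in KO, and OL mice 5.16, 3.23 and 2.68 CPM in WT and 2.98, 5.62 and 5.02 CPM in KO. RL mice had 25.9, 9.81 and 36.1 CPM in WT and 21.5, 14.3 and 10.9 CPM in KO. The lowest RL mouse thus lay above the highest Basal or OL mouse, and the RL mice of each genotype spread widely. The ratio of mean CPM from OL to RL was 6.49 in WT (log2 fold change 2.27, 95% interval 1.52 to 3.03, limma adjusted p = 0.0211) and 3.43 in KO mice (1.57, interval 0.81 to 2.32, adjusted p = 0.212, not called). Ordered by log2 fold change, *Plin4* ranked 1 of 15329 genes in both comparisons, *Hif3a* ranked 2 and *Zbtb16* 5 in KO mice, and in WT mice *Fkbp5* ranked 47, *Hif3a* 51 and *Zbtb16* 61. Among WT_RL mice, *Plin4* at 25.9, 9.81 and 36.1 CPM stood beside summed choroid plexus markers of 49.6, 881 and 8722 CPM. Over the 18 mice Pearson r of *Plin4* with these markers was 0.180 and Spearman rho 0.265 (permutation adjusted p = 0.788 and 0.6815), with r = 0.499 without the 2 most distant mice and 0.365 with group means removed, and the part of that tissue was not tested.

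**Figure D3:**
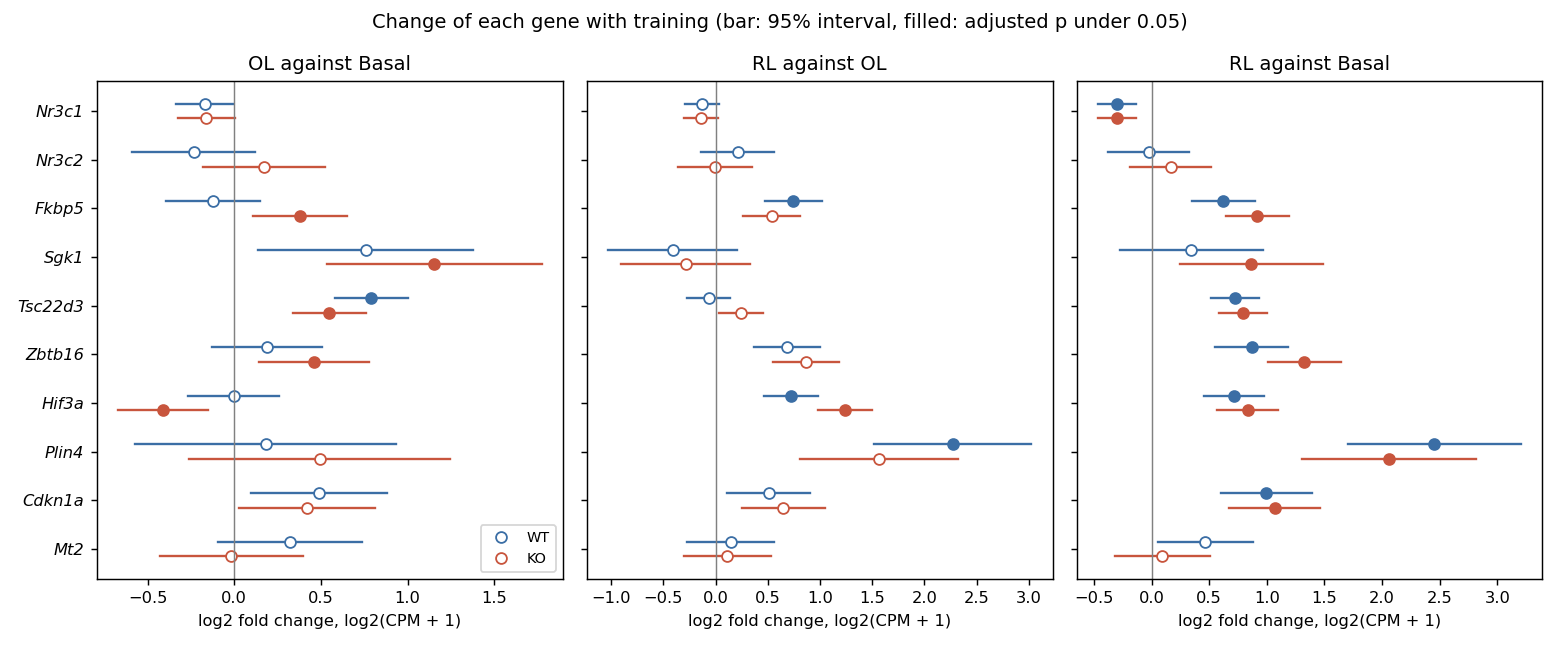
Log2 fold change (x axis, log2(CPM + 1)) of each gene in the 3 training comparisons, with WT in blue and KO in red. Bars are 95% intervals and filled points have an adjusted p under 0.05. *Tsc22d3* moved from Basal to OL, and *Hif3a* and *Plin4* lay to the right from OL to RL.

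*Tsc22d3* (chromosome X, 140539528 to 140600659, minus strand) encodes GILZ, the glucocorticoid-induced leucine zipper, an anti-inflammatory mediator. It stood at 66.1, 59.3 and 68.4 CPM in WT_Basal, 112.0, 131.0 and 96.5 CPM in WT_OL and 100.6, 108.1 and 113.0 CPM in WT_RL mice. In KO mice it stood at 74.0, 81.8 and 74.5 CPM at Basal, 102.1, 126.0 and 111.4 CPM after OL, and 135.0, 134.1 and 131.3 CPM after RL. Every trained mouse lay above every Basal mouse of its genotype. It rose from Basal to OL by 1.75-fold in WT (log2 fold change 0.79, standard error 0.0993, limma adjusted p = 0.000356) and 1.47-fold in KO mice (0.55, adjusted p = 0.00109). From OL to RL the log2 fold change was -0.07 in WT, with a 95% interval from -0.28 to 0.14, and 0.24 in KO mice (interval 0.03 to 0.45, adjusted p = 0.947).

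*Sgk1* (chromosome 10, 21882184 to 21999903, plus strand), whose window holds the full element printed above, encodes a kinase that regulates ion channels and transporters. WT mice had 88.4, 68.3 and 84.4 CPM at Basal, 152.0, 137.5 and 119.9 CPM after OL, and 95.1, 59.9 and 185.0 CPM after RL. KO mice had 81.8, 91.8 and 63.1 CPM at Basal, 141.9, 204.1 and 184.5 CPM after OL, and 193.0, 133.2 and 113.8 CPM after RL. OL mice lay above Basal mice in both genotypes, and WT_RL mice spread over nearly the whole range. From Basal to OL *Sgk1* rose 2.24-fold in KO mice (log2 fold change 1.15, standard error 0.292, limma adjusted p = 0.00969), and had a log2 fold change of 0.76 in WT mice (adjusted p = 0.113). The KO call after OL held in all alternatives and without any 1 mouse (adjusted p from 0.000753 to 0.0436). The call from Basal to RL in KO mice (0.87, adjusted p = 0.0416) was lost with CPM floored at 1 (0.0702), with the GC correction (0.0501) and without any 1 of KO_Basal replicates 1 to 3 or KO_RL replicates 1 and 2 (adjusted p from 0.0571 to 0.164).

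*Sgk1* moved with the choroid plexus markers from mouse to mouse. Over 18 mice Pearson r with their mean log2 value was 0.692 and Spearman rho 0.736 (permutation p = 0.00122 and 0.00076, adjusted p = 0.0122 and 0.0076 over the 10 genes). Pearson r became 0.759 after removal of the 2 mice most distant from the median marker level, and 0.655 with group means removed. Both *Sgk1* calls in KO mice compare groups whose choroid plexus markers differed without overlap, and the part of that tissue in them was not tested. In WT mice the summed markers of the Basal and OL groups overlapped, while *Sgk1* did not. With group means removed, *Sgk1* also varied with *Plin4* (Pearson r = 0.922, and 0.385 without removal). Of 110 such relations, of 10 genes with 11 marker lists, 8 had an adjusted p under 0.05 by Pearson r, 10 by Spearman rho and 5 by both. *Mt2* was higher in mice with more of the astrocyte markers (Pearson r = 0.773, Spearman rho = 0.697, permutation adjusted p = 0.002 and 0.0193, r = 0.586 without the 2 most distant mice). *Fkbp5* (Pearson r = -0.624, Spearman rho = -0.620, permutation adjusted p = 0.0215 and 0.0314) and *Zbtb16* (-0.653 and -0.676, adjusted p = 0.0187 and 0.0286) varied against the microglia markers, with r of -0.530 and -0.497 without the 2 most distant mice. With group means removed, r of *Fkbp5* and *Zbtb16* with the microglia markers was -0.577 and -0.741. The summed CPM of those 8 markers overlapped between OL and RL mice, from 426.5 to 559.4 and 428.5 to 506.3 in WT and from 427.6 to 454.7 and 389.3 to 501.2 in KO mice. It was higher without overlap in KO_Basal (497.3 to 543.7) than in KO_OL mice, where both genes were called higher than at Basal. *Fkbp5* also varied with the dentate granule neuron markers (Pearson r = 0.605, Spearman rho = 0.585, permutation adjusted p = 0.0397 and 0.0641, r = 0.368 without the 2 most distant mice and 0.860 with group means removed). With the hypothalamic and pituitary markers, 5 genes, *Fkbp5*, *Tsc22d3*, *Zbtb16*, *Hif3a* and *Cdkn1a*, had Spearman rho from -0.595 to -0.542 (adjusted p from 0.0411 to 0.0452) and Pearson r from -0.507 to -0.239 (adjusted p from 0.137 to 0.451). With group means removed their Pearson r was from -0.195 to -0.065. Those markers were low, and their summed CPM was highest in KO_Basal replicate 1 (105.8) and WT_Basal replicate 2 (44.3). The part of these cells in the changes with training was not tested.

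**Figure D4:**
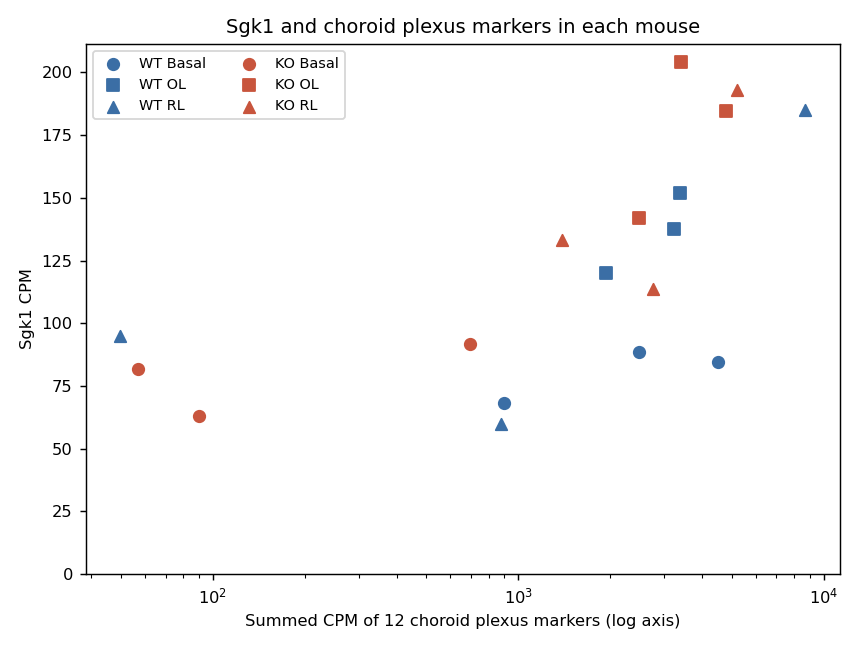
*Sgk1* CPM (y axis) against the summed CPM of 12 choroid plexus markers (x axis, log scale) in each of 18 mice, with WT in blue, KO in red, circles for Basal, squares for OL and triangles for RL. The 3 KO_Basal mice lie at the left below 100 CPM of *Sgk1*, and WT_RL mice hold both the lowest and the highest marker sum.

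*Cdkn1a* (chromosome 17, 29090976 to 29100727, plus strand, with exons that overlap *AC167363.2* on the other strand) encodes the cell cycle inhibitor p21. Its values were 6.83, 6.43 and 7.35 CPM in WT_Basal, 8.36, 13.6 and 8.84 CPM in WT_OL, and 11.1, 17.9 and 15.8 CPM in WT_RL mice. They were 7.92, 8.93 and 7.58 CPM in KO_Basal, 9.14, 14.1 and 10.8 CPM in KO_OL, and 21.1, 15.7 and 18 CPM in KO_RL mice. OL mice lay above Basal mice in both genotypes, and RL mice lay above OL mice in KO but overlapped with them in WT. From Basal to RL *Cdkn1a* rose 2.18-fold in WT (log2 fold change 0.996, standard error 0.186, limma adjusted p = 0.0025) and 2.24-fold in KO mice (1.07, adjusted p = 0.000859). Neither step alone was called.

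*Mt2* (chromosome 8, 94172664 to 94173568, plus strand) encodes a metal-binding metallothionein. Its exons overlap *Gm45774* on the other strand, and whether reads of the closely similar *Mt1* were counted on it was not tested, so its values are uncertain. It ranged from 104.9 to 152.4 CPM in WT_Basal, 117.4 to 200.8 CPM in WT_OL and 145.9 to 225.8 CPM in WT_RL mice, and from 134.9 to 161.0, 142.4 to 154.6 and 129.8 to 186.2 CPM in the KO groups in the same order. The groups overlapped, and *Mt2* was called in no comparison.

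Set side by side for training, the calls were as follows. From WT_Basal to WT_OL, 1 of the 10 genes was called higher, *Tsc22d3*, against 3.88% of all genes called higher and 5.62% lower, and the count was 2 without WT_OL replicate 3. From KO_Basal to KO_OL, 4 were called higher and 1 lower, against 11.2% of all genes called higher and 12.3% lower. That KO count fell to 2 or 3 without any 1 of its 6 mice and to 3 with CPM floored at 1 or with the GC correction. From WT_Basal to WT_RL, 6 were called higher and 1, *Nr3c1*, lower, against 8.28% and 7.42% of all genes. From KO_Basal to KO_RL, 7 were called higher and 1, *Nr3c1*, lower, against 11.6% and 12% of all genes. *Nr3c2* and *Mt2* were the genes called in none of these, and comparisons that start from the same Basal mice share those mice. In all of these comparisons except WT_OL against WT_Basal, the share of uniquely mapped reads also differed without overlap. The difference between genotypes in the change from Basal to OL and from Basal to RL was called for 0 of the 10 genes and for 0% of all genes by limma, with 2 and 1 of the 10 at an unadjusted p under 0.05 against 12.4% and 4.99% of all genes. Without WT_OL replicate 3 that difference was called for *Fkbp5* from Basal to OL (0.68, adjusted p = 0.0352). That refit kept WT_OL replicate 2, which stood apart from the other libraries and had the lowest *Fkbp5* value of the 18 mice (51.4 CPM).

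The genotypes were also compared directly at each stage. *Hif3a* was higher in all 3 KO_Basal than in all 3 WT_Basal mice (log2 difference 0.55, standard error 0.123, adjusted p = 0.741) and in all 3 KO_RL than in all 3 WT_RL mice (0.66, standard error 0.123, adjusted p = 0.2798), and neither difference was called by limma. The summed choroid plexus markers of these Basal groups did not overlap either, being lower in KO mice, and their part in the Basal difference was not tested, while those of the RL groups overlapped. At Basal, 0 of the 10 genes were called, against 0.013% of all genes called higher and 0.00652% lower in KO mice, and after OL 0 were called, against 0.0261% and 0.0391%. After RL, 0 were called, against 0% in either direction. At an unadjusted p under 0.05, 2 of the 10 differed at Basal, 1 after OL and 3 after RL, against 4%, 18% and 4.93% of all genes. Without overlap, 3 of the 10 were higher in KO_Basal than in WT_Basal mice against 7.05% of all genes, namely *Tsc22d3*, *Hif3a* and *Cdkn1a*, and 4 were higher in KO_RL than in WT_RL mice against 3.99%, namely *Fkbp5*, *Tsc22d3*, *Zbtb16* and *Hif3a*. The largest log2 difference at RL among those 4 was that of *Hif3a*, and that of *Fkbp5* was 0.23, with a 95% interval from -0.04 to 0.51. Without WT_RL replicate 1 the *Hif3a* difference at RL was called (0.73, adjusted p = 0.0265), and without WT_OL replicate 3 that of *Fkbp5* after OL was called (0.62, adjusted p = 0.00794). The latter refit again kept WT_OL replicate 2, with its low *Fkbp5* value.

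Further genes known to be induced by glucocorticoids did not all follow this course. Of 22 such genes outside the 10, all measured, 7 were called higher and 1 lower in WT_RL than in WT_Basal mice, and 10 higher and 1 lower in KO_RL than in KO_Basal mice. Of all genes, 8.28% were called higher and 7.42% lower in the WT comparison, and 11.6% and 12% in the KO comparison. The median log2 fold changes of the 22 genes were 0.30 and 0.34, with 0.0015 and -0.0034 over all genes. *Mertk*, a phagocytic receptor of glia, rose in WT (log2 fold change 0.65, limma adjusted p = 0.000432), as did *Sult1a1*, a sulfotransferase (0.77, adjusted p = 0.0026), *Cebpb* (0.64, adjusted p = 0.00801) and *Gpd1*, glycerol-3-phosphate dehydrogenase (0.46, adjusted p = 0.00551). In KO mice the largest was *Arrdc2* (0.80, adjusted p = 0.00492), followed by *Angptl4* (0.57, adjusted p = 0.0488), *Errfi1* (0.49, adjusted p = 0.00931) and *Sult1a1* (0.46, adjusted p = 0.0303). *Ddit4*, an inhibitor of mTORC1 signalling, fell by 0.35 in WT (adjusted p = 0.00413) and fell by 0.21 in KO mice (adjusted p = 0.0455).

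In the step from OL to RL few of these 22 genes were called. In WT mice 0 were called higher and 2 lower, against 0.104% and 0.157% of all genes. These were *Per1*, a clock gene with a glucocorticoid response element, which fell by 0.55 (limma adjusted p = 0.0194), and *Ddit4*, which fell by 0.49 (adjusted p = 0.0194). In KO mice none of the 22 was called, against 0.0196% of all genes called higher and 0% lower. There *Per1* had a log2 fold change of -0.37 (adjusted p = 0.198) and *Ddit4* of -0.22 (adjusted p = 0.774). *Per1* had risen from Basal to OL in WT (0.81, adjusted p = 9.1e-05) and in KO mice (0.75, adjusted p = 2.66e-05), together with *Dusp1* (0.77) and *Klf15* (0.50) in WT and with *Errfi1* (0.52), *Arrdc2* (0.54) and *Txnip* (0.59) in KO mice. In all, 3 of 22 were called higher in WT against 3.88% of all genes and 5 in KO mice against 11.2%, the fifth being *Gpd1* (0.36), and 0 were called lower. Over both genotypes, *Mertk* (0.48, adjusted p = 0.00311) and *Sult1a1* (0.54, adjusted p = 0.0276) were called higher with reversal than with original learning, and *Per1* and *Ddit4* lower. In that comparison 0.209% of all genes were called higher and 0.144% lower.

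**Figure D5:**
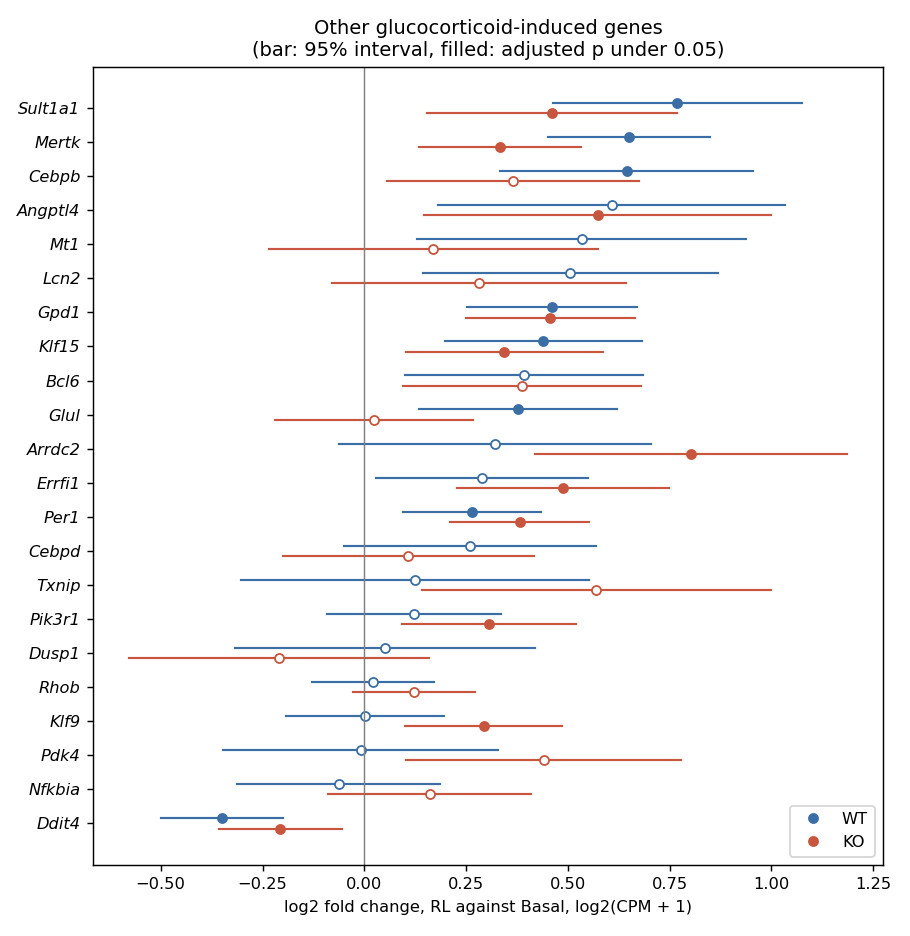
Log2 fold change from Basal to RL (x axis, log2(CPM + 1)) of 22 other glucocorticoid-induced genes in WT (blue) and KO mice (red). Bars are 95% intervals and filled points have an adjusted p under 0.05, with *Sult1a1* and *Mertk* highest in WT and *Ddit4* lowest in both.

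Genes that act on the receptors themselves were followed as well. Of 10 coregulators, 8 were called higher in KO_OL than in KO_Basal mice and 8 in KO_RL than in KO_Basal mice, among them the histone acetyltransferase gene *Crebbp* (log2 fold change 1.06, limma adjusted p = 4.79e-05, and 1.19, adjusted p = 2.34e-05). Of all genes, 11.2% were called higher after OL and 11.6% after RL in KO mice, and 3.88% and 8.28% in WT mice. In WT mice 1 was called higher after OL, *Crebbp* (0.64, adjusted p = 0.00523), and 4 after RL, among them *Crebbp* (0.94), *Smarca4* (0.46) and *Med1* (0.38). Of 11 chaperones and cochaperones, *Hspa8* (0.56, adjusted p = 0.000601), *Stip1* (0.51, adjusted p = 0.00102), *Fkbp4* (0.44, adjusted p = 0.00241) and *Hsp90ab1* (0.29, adjusted p = 0.0415) were called higher in WT_RL than in WT_Basal mice. *Fkbp4* encodes FKBP52, the cochaperone that opposes FKBP51. In KO mice 4 chaperone genes were called higher and 2 lower after OL, against 11.2% and 12.3% of all genes, and 3 higher and 2 lower after RL, against 11.6% and 12%, with *Ptges3* and *Ppid* lower both times, as they were in WT_OL mice. Of 4 measured genes of steroid metabolism, *Akr1c14*, a 3-alpha-hydroxysteroid dehydrogenase, fell by 0.79 in WT_RL (adjusted p = 0.00446) and fell by 0.99 in KO_RL mice (adjusted p = 0.00059) against Basal. *Hsd11b1*, which regenerates corticosterone inside cells, fell by 0.42 in KO_RL mice (adjusted p = 0.023), and *H6pd*, which supplies its cofactor, rose by 0.32 (adjusted p = 0.0457). Of all genes, 8.28% were called higher and 7.42% lower in WT_RL than in WT_Basal mice, and 11.6% and 12% in the KO comparison.

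Genes induced by neuronal activity were set beside them. Of 12 such genes, 11 were called higher in WT_OL than in WT_Basal mice against 3.88% of all genes, among them *Fos* (log2 fold change 1.97, limma adjusted p = 0.000143), *Egr2* (1.90, adjusted p = 0.000314) and *Arc* (1.69, adjusted p = 0.00132). From WT_OL to WT_RL, 0 were called higher and *Egr2* fell by 1.26 (adjusted p = 0.0351), while *Fkbp5*, *Hif3a* and *Plin4* rose. In KO mice 5 were called higher and 1 lower after OL than at Basal, against 11.2% and 12.3% of all genes, and 4 higher and 1 lower after RL, against 11.6% and 12%. From KO_OL to KO_RL limma called 0 of the 12, against 0.0196% of all genes called higher and 0% lower. An unadjusted p under 0.05 was found for 3 of the 12, among them *Egr2* (-0.58, adjusted p = 0.938), and for 737 of all 15329 genes. *Fos* had a log2 fold change of -0.43 (adjusted p = 0.9996).

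The genes whose log2 values were most like each of the 10 over the 18 libraries were picked by Pearson r, as a description. *Fkbp5* was most like *Ncbp1* (0.950), *Dapk1* (0.947) and *Nedd4l* (0.937), and *Zbtb16* most like *Med13l* (0.935), *Zmynd8* (0.928) and *Aff1* (0.928). *Tsc22d3* was most like *Per2* (0.931), *Ttbk1* (0.928) and *Slc2a1* (0.919), and *Cdkn1a* most like *Fam83d* (0.950), *Slc2a1* (0.947) and *Tns3* (0.921). Among the genes most like *Hif3a* were *Ada* (0.828) and *Rin2* (0.827), and *Plin4* was most like *Notch4* (0.881), *Cdh24* (0.874) and *Hip1* (0.866). *Sgk1* was most like *Mest* (0.908), *Cish* (0.889) and *Txnip* (0.869), and *Mt2* most like *Mt1* (0.906), *Taf10* (0.893) and *Mrps7* (0.888). *Nr3c1* was most like *Lpar4* (0.897), *Pank3* (0.887) and *Chml* (0.882), and *Nr3c2* most like *Zeb2* (0.930), *Wdr11* (0.925) and *Zfp608* (0.920). With group means removed, r fell to 0.016 for *Hif3a* with *Rin2* and to 0.118 for *Tsc22d3* with *Ttbk1*, while that of *Fkbp5* with *Nedd4l* was 0.958.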

How the data were processed

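Hippocampal mRNA of 18 mice was sequenced as paired reads. According to the methods and the submitters' processing notes, the authors aligned reads to mm10 with STAR 2.5.1, obtained gene counts, scaled these by TMM in edgeR 3.12.1 and deposited 1 table of log2 values. The methods describe CPM floored at 1. The deposited log2 values are log2(CPM + 1) instead, since 2 to their power, minus 1, gives whole multiples of 1 step per library (100% within 0.1 read), and tests were run on them as they are. Counting precision follows from 64 to 7987 reads per gene and library, and errors given are over mice. limma 3.58.1 in R 4.3.3 was fitted with 1 mean per group over 18 libraries and a variance trend, two-sided, with Benjamini-Hochberg adjustment over 15329 genes. Simulated data with known changes were used to check this procedure. Groups came from the labels. The 10 genes and all lists were chosen with earlier results of these data known. Named genes are the 10, up to 4 called genes per list and comparison by size of change, the 3 most alike genes, *Ccny*, and the other genes of a comparison with few calls. A few list genes outside this rule were named after their values were seen. Some genes that the rule selects are not reported here. Alternatives were CPM floored at 1, a mean of at least 1 CPM, the compared groups alone, a replicate block, voom on recovered reads, each mouse left out, and GC correction. Positions are from GENCODE M21 on GRCm38 and promoter windows from RefSeq on GRCm38.p6. The labels name a stranded kit and the methods an unstranded one, and the strand setting of the counting is not given in the sources used here, so reads of overlapping genes on opposite strands cannot be told apart.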

Additional observations from a re-analysis of the deposited data

How the results depend on the processing

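Of 29 called and 25 uncalled member results followed through the alternatives, a mean of at least 1 CPM and voom on recovered reads changed none. Fitted on the 6 libraries compared alone, the count of members called was 0 in place of 3 between WT_RL and WT_OL mice and 0 in place of 1 between KO_RL and KO_OL mice, with fewer samples to estimate the spread. Between KO_OL and KO_Basal mice it was 3 in place of 5 with CPM floored at 1 and 3 with the GC correction, which was chosen after the data had been seen. That correction also turned *Nr3c1* from WT_Basal to WT_OL, from -0.17 to 0.011 on the log2 scale, and the cause was not tested.

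With each mouse left out in turn, members called ranged from 1 to 2 for WT_OL against WT_Basal, 0 to 5 for WT_RL against WT_OL, 6 to 7 for WT_RL against WT_Basal, 2 to 3 for KO_OL against KO_Basal, 1 to 1 for KO_RL against KO_OL and 7 to 8 for KO_RL against KO_Basal. They ranged from 0 to 1 for KO_OL against WT_OL, for KO_RL against WT_RL and for the genotype difference in the change from Basal to OL, and from 4 to 5 for RL against OL over both genotypes. Of 198 such refits of called results 168 kept the call and 30, in 8 results, did not.

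The sample titles do not say whether replicate numbers pair the mice. Of 27 pairs of same-numbered libraries 5 had deviations correlated above 0.1 (range -0.6 to 0.514). Differently numbered pairs were not set beside them, so these values cannot decide it. With a replicate block the count from KO_Basal to KO_RL was 7 in place of 8, through *Sgk1* (0.87, limma adjusted p = 0.0526), and no other call changed. The genes with the fewest reads, *Plin4*, *Hif3a* and *Cdkn1a*, carry the largest relative counting error.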
